A study of Mus musculus with 80 samples.

Results

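The genes described here are the homeobox developmental regulators outside the Hox clusters: 56 protein-coding genes of 9 families, out of 21887 protein-coding genes with bounds in the RefSeq annotation of GRCm38.p6. They were chosen by symbol alone, as Pax, Lhx, Irx, Dlx, Msx, Emx or Gbx followed only by digits, as Six2 by the same rule, or as any symbol starting with Nkx. The rule itself uses no measured value, but it was set with earlier results of these data known. There were 9 Pax, 8 Lhx, 6 Irx, 6 Dlx, 3 Msx, 2 Emx, 2 Gbx and 14 Nkx genes, beside 6 of the family of Six2. They lay on 14 chromosomes in 45 loci, counting neighbours within 200 kb as 1 locus, and 19 of them shared a locus with another of the 56. The window of 7 of them (Gbx2, Lhx3, Nkx6-2, Pax6, Pax9, Six4 and Six5) also held part of another protein-coding gene.

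Homeodomain proteins bind DNA through a compact helical fold and set up regional identity in the embryo, in the brain, spinal cord, eye, skeleton, heart and gut. Most of these genes are silent in pluripotent cells, where their CpG-rich start regions are known for carrying the activating mark H3K4me3, written by trithorax-type methyltransferases, together with the Polycomb mark H3K27me3. That double state is called bivalent. H3K27ac marks active promoters and enhancers, H3K9me3 marks heterochromatin, and H3K18la is lactylation of histone H3, a modification derived from lactate.

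The study followed chemical reprogramming of mouse fibroblasts by CUT&Tag, in which an antibody directs a transposase to the chromatin that carries a mark. The stages were D0, which are embryonic fibroblasts from the 129XOG2 cross that carry the OG2 transgene, then D2, D4, D6, D8, D10 and D12 of the culture in reprogramming medium, and finally iPSC, the reprogrammed pluripotent cells grown on a feeder layer in medium with N2, B27, LIF, CHIR99021 and PD0325901. The OG2 transgene was therefore shared by all stages as far as the labels give it, the kind of feeder cell is not stated, and a feeder contribution to the iPSC lists was not tested. Each of the 5 marks had 1 deposited peak list at each of the 8 stages, 40 lists in all, although the labels name 2 libraries for each. The data thus hold no spread between replicates, and no difference between stages carries a test. Many counts are given beside the same count over all protein-coding genes, but others, such as those of covered start sites, are not. In whole cultures, a mark held by fewer cells and less of it in every cell cannot be told apart.

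The lists held 7009 to 37784 peaks on the autosomes and sex chromosomes, and the background that the authors' fold enrichments and p-values imply ran between 1.31 fragments (H3K18la at D2) and 4.06 fragments under a typical peak. The H3K18la list of D2 names its peaks after 1 library, so it may hold that library alone. The stage labels were checked on markers: H3K4me3 lay over 5 of 5 pluripotency genes (Nanog, Pou5f1, Zfp42, Dppa5a and Dppa4) in iPSC and over 0 of 5 at D0, and H3K27ac over 3 of 5 in iPSC and 0 of 5 at D0. Over 5 fibroblast genes (Col1a1, Col1a2, Thy1, Twist1 and Pdgfrb) H3K27ac lay on 0 in iPSC and 5 at D0, while H3K4me3 lay on all 5 at both. The pluripotency genes with H3K27ac numbered 4 at D12.

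The 250 bases upstream of 6 start sites, as RefSeq gives them on GRCm38.p6, show the kind of sequence found before the starts of these genes. Each is written 5′ to 3′ on the strand of its gene, and capitals mark every CG dinucleotide. Dlx1 (chr2:71529195-71529444, plus strand) carried both marks in its window, the gene bounds with 1 kb on each side, at all 8 stages. Over its start site H3K27me3 was called at D0, D6, D10 and D12 only. Gbx2 (chr1:89931177-89931426, minus strand) and Msx2 (chr13:53472781-53473030, minus strand) carried both over the start site at D0 and H3K4me3 alone there in iPSC. Pax2 (chr19:44746351-44746600, plus strand) was the 1 gene with H3K27me3 over its start site in iPSC. Lhx3 (chr2:26208250-26208499, minus strand) never carried H3K4me3 in its window, and neither mark covered its start site at any stage. Six5 (chr7:19094294-19094543, plus strand) never carried H3K27me3 in its window.
Dlx1: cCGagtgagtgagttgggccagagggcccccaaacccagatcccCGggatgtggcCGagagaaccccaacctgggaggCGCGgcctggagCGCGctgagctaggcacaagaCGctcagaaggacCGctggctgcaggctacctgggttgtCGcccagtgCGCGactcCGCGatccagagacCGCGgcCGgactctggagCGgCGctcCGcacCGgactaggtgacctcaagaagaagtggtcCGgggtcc
Gbx2: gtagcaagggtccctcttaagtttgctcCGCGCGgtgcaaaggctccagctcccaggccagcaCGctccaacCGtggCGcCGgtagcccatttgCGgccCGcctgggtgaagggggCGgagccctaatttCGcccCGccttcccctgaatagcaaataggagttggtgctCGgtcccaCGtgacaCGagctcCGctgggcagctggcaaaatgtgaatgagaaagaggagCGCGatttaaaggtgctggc
Msx2: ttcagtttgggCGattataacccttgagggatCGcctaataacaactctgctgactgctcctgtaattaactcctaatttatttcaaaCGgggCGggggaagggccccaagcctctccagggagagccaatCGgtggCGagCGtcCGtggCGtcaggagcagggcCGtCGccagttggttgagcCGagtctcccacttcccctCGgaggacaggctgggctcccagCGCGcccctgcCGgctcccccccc
Pax2: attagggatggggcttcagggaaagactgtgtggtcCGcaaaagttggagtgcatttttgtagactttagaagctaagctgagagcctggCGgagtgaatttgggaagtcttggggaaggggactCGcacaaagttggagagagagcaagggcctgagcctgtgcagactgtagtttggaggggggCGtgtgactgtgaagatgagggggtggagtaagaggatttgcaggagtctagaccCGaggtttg
Lhx3: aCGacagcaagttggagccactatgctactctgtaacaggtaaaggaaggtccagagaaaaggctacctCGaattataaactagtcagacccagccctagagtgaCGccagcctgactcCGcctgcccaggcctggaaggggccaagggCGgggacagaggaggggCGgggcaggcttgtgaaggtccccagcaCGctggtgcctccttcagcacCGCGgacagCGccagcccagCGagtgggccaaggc
Six5: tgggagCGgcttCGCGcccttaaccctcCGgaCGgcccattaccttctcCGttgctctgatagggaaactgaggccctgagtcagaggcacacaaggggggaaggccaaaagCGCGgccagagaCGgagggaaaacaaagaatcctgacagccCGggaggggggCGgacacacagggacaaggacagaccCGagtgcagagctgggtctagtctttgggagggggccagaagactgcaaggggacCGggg

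The upstream sequences of Dlx1, Gbx2 and Msx2 held 22, 18 and 16 CG dinucleotides, that of Six5 held 13, that of Lhx3 held 11 and that of Pax2 held 5. Start regions were given for 41 of the 56 genes. Over 250 bases before and 50 after the start, the median ratio of observed to expected CG was 0.747 in these 41 genes, against 0.576 in the 17492 protein-coding genes with a start region and 0.723 in the 12911 of those with H3K4me3 at any stage. Of the homeobox start regions, 100% held at least 1 CG, against 94.8% of all. The homeobox genes were thus CpG-rich, close to marked genes in general. The core homeodomain motif TAAT, searched on both strands, lay in 51.2% of the homeobox start regions and in 52.5% of all start regions of the same length.

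A gene was called bivalent at a stage where its bounds, extended by 1 kb on each side, met at least 1 base of an H3K4me3 peak and at least 1 base of an H3K27me3 peak. Bivalent homeobox genes numbered 43 of 56 (D0), 45 (D2), 41 (D4), 18 (D6), 39 (D8), 45 (D10), 25 (D12) and 38 in iPSC. Over all protein-coding genes the share was 21.2% (D0), 18% (D2), 21.4% (D4), 13.2% (D6), 17.9% (D8), 21.4% (D10), 15.4% (D12) and 24.4% in iPSC. The homeobox share in the deposited lists was above that of all genes at every stage, although the median window was 8.11 kb for the homeobox genes and 19.2 kb for all genes. In the lists as deposited, which differ in length, both sets were lowest at D6 and next lowest at D12. Of the 56 genes, 53 were bivalent at 1 stage or more, against 38.2% of all genes, and the exceptions were Lhx3, Pax4 and Six5.

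**Figure D1:**
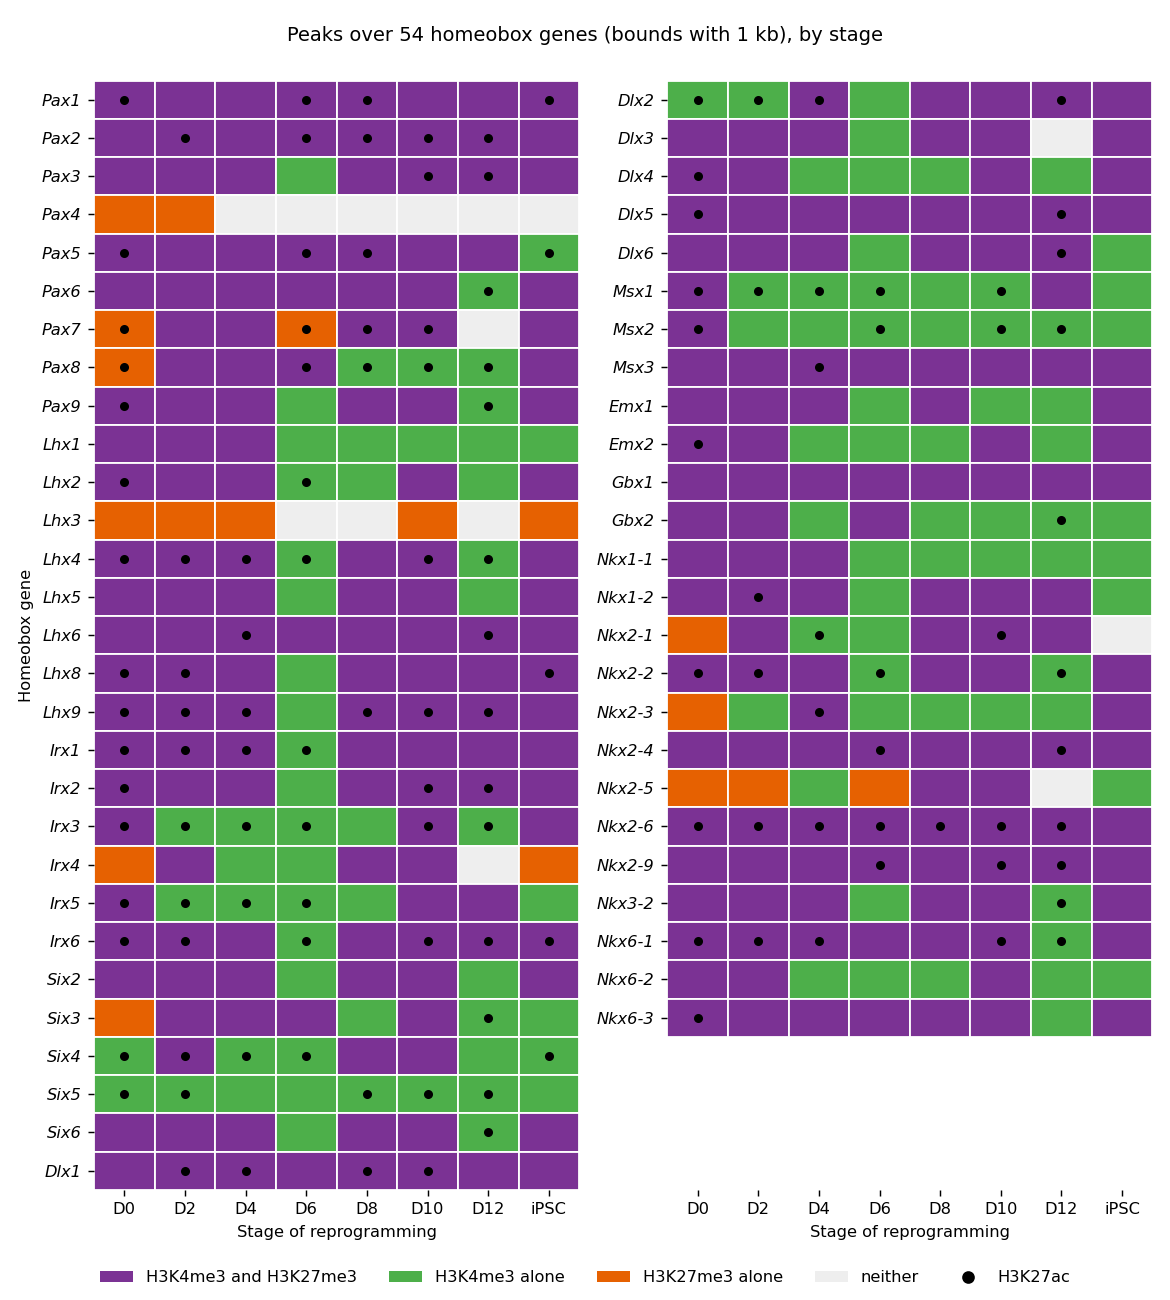
State of 54 of the 56 homeobox genes at each stage. Colours give H3K4me3 and H3K27me3 peaks in the gene bounds extended by 1 kb (1 list per mark and stage), and a black dot adds an H3K27ac peak. Purple, the state with both marks, fills 42 of the 54 rows at D0, 17 at D6 and 36 in iPSC, and the green cells at D6 and D12 are genes that kept H3K4me3 without a called H3K27me3 peak.

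H3K4me3 was called over 47 homeobox genes (D0), 53 (D2), 54 (D4), 52 (D6), 54 (D8), 54 (D10), 50 (D12) and 52 in iPSC, against 64.9%, 67.3%, 67.3%, 67%, 67.7%, 68.8%, 68.1% and 69.7% of all genes at the same stages. It lay over 46 of the 56 at all 8 stages, against 61.7% of all genes. In these lists the bivalent counts followed H3K27me3, which was called over 52 homeobox genes (D0), 48 (D2), 42 (D4), 20 (D6), 39 (D8), 46 (D10), 25 (D12) and 40 in iPSC. The share of all genes with H3K27me3 was 28% (D0), 21.9% (D2), 24.7% (D4), 15.9% (D6), 22.5% (D8), 26% (D10), 18.6% (D12) and 28.2% in iPSC. Over all genes the iPSC and D0 shares were thus nearly equal, while the homeobox count was 12 lower in iPSC (40) than at D0 (52). With 52 of 56 marked at D0, few homeobox genes were left that could gain the mark, and 2 did. Of the homeobox genes with the mark at D0, 26.9% lacked it in iPSC, against 31.8% of all genes with it at D0.

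The H3K27me3 lists differed in length: 7574 peaks at D6 and 9972 at D12, against 13383 to 19842 at the other stages. With each H3K27me3 list cut to its 7574 strongest peaks, homeobox genes with the mark still numbered 50 at D0, 20 at D6, 23 at D12 and 27 in iPSC. For H3K27me3, D6 and D12 thus remained the lowest stages at equal list length, and the part of depth in this was not tested. The order of the bivalent counts did not hold. With the lists of each mark cut to the shortest of that mark, bivalent homeobox genes numbered 42 (D0), 37 (D2), 36 (D4), 17 (D6), 31 (D8), 37 (D10), 20 (D12) and 15 in iPSC, so that iPSC was lowest. All genes were then lowest at D12, with 12.1%, and next at D6, with 12.5%, against 13.5% in iPSC.

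**Figure D2:**
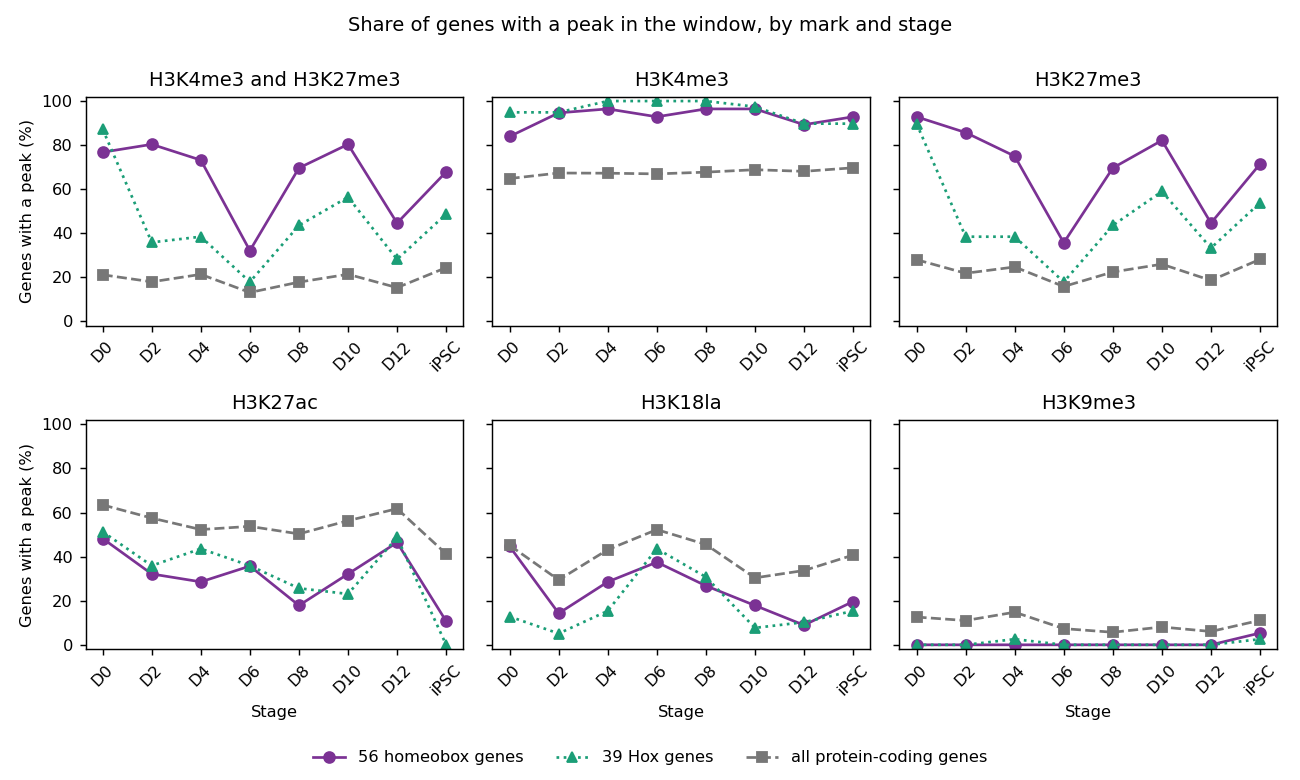
Share of genes with a peak in the window (y axis, percent) at each stage (x axis), for both methylation marks together and for each mark, in the 56 homeobox genes, 39 Hox genes and 21887 protein-coding genes. Homeobox genes lie above all genes for H3K27me3 and for the bivalent state at every stage, and below all genes for H3K27ac, H3K18la and H3K9me3, with a median window of 8.11 kb against 19.2 kb.

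The bivalent state was called at all 8 stages over 11 homeobox genes, against 5.03% of all genes. They included Dlx1 and Dlx5 (forebrain interneurons, and jaw and bone), Gbx1, Lhx6 (cortical interneurons), Msx3 (dorsal neural tube), Nkx2-4, Nkx2-6 and Nkx2-9 (hypothalamus, pharynx and ventral neural tube), Pax1 (vertebral column) and Pax2 (kidney and eye). Nkx2-4 and Pax1 lie in 1 locus on chromosome 2. The length of the Pax1 window under H3K27me3 peaks was 2.89 (D0), 1.45 (D2), 1.70 (D4), 0.743 (D6), 1.65 (D8), 1.60 (D10), 0.342 (D12) and 1.95 kb in iPSC. For Nkx2-4 it was 1.66 (D0), 0.762 (D2), 0.741 (D4), 0.625 (D6), 1.22 (D8), 1.01 (D10), 0.670 (D12) and 0.610 kb in iPSC. In both genes a short stretch of the mark remained called in the thinnest lists. The Pax2 window, 93.7 kb long, lost more: it held 10.0 (D0), 4.80 (D2), 2.59 (D4), 0.358 (D6), 1.52 (D8), 2.58 (D10), 0.548 (D12) and 1.78 kb in iPSC. Without the D6 list 17 genes were bivalent at all remaining stages, and without the D6 and D12 lists 28 were. Neither count was made over all genes. With peaks of −log10 q of at least 10 no homeobox gene was bivalent at all 8 stages. At D6 2 of 56 were then bivalent, which is 3.57%, against 2.48% of all genes.

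Of the 43 genes bivalent at D0, 33 were bivalent in iPSC and 10 carried H3K4me3 alone there. The 33 depended on the peaks used: 10 genes were bivalent at both ends with peaks of −log10 q of at least 10, 13 with lists of equal length and 19 where the peaks of the 2 marks had to overlap. The counts of 10, 13 and 19 were not made over all genes. Over all genes bivalent at D0, 69.7% were bivalent in iPSC and 27.4% carried H3K4me3 alone. Among the Hox genes 18 of 34 stayed bivalent and among the Fox genes 15 of 24. The 10 homeobox genes without H3K27me3 in iPSC were Dlx6 (bone and jaw), Gbx2 (midbrain and hindbrain boundary), Irx5, Lhx1 (head and kidney), Msx1 and Msx2 (teeth and skull), Nkx1-1, Nkx1-2, Nkx6-2 (neural tube) and Pax5 (B cells and midbrain). In the lists as deposited, the 33 with both marks at both ends included Pax3, Pax6 and Pax9, Lhx2, Lhx5 and Lhx9, Irx1, Irx2, Irx3 and Irx6, Emx1 and Emx2, and Six2 and Six6.

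Pax5 held the largest H3K27me3 length of any homeobox gene at D0: its 188 kb window had 11.8 (D0), 2.46 (D2), 3.69 (D4), 0.845 (D6), 1.07 (D8), 2.86 (D10), 0.769 (D12) and 0 kb in iPSC. Gbx2 had 2.53 (D0), 0.828 (D2), 0 (D4), 0.463 (D6), 0 (D8), 0 (D10), 0 (D12) and 0 kb in iPSC. Msx2, a target of BMP signalling, had 0 kb in iPSC and 1.52 kb at D0, and was the 1 gene with H3K27me3 at D0 alone. Lhx1 had 1.72 (D0), 1.57 (D2), 0.356 (D4), 0 (D6), 0 (D8), 0 (D10), 0 (D12) and 0 kb in iPSC. These genes differed in when the mark was last called, at D0 for Msx2, D4 for Lhx1, D6 for Gbx2 and D12 for Pax5.

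In most of these genes the mark was still called close by in iPSC. Counting also genes with H3K27me3 alone at D0, 14 homeobox genes had the mark at D0 and not in iPSC, against 8.9% of all genes. These 14 were 26.9% of the homeobox genes with the mark at D0, while 31.8% of all genes with it at D0 lacked it in iPSC. The nearest iPSC peak of H3K27me3 lay within 2.5 kb of the gene bounds in 9 of the 14: at 1.21 kb from Pax4, 1.29 kb from Msx2, 1.30 kb from Irx5, 1.31 kb from Nkx6-2, 1.34 kb from Msx1, 1.42 kb from Gbx2, 1.64 kb from Lhx1, 2.08 kb from Six3 and 2.40 kb from Nkx2-1. It was 3.20 kb from Pax5, 5.67 kb from Nkx2-5, 6.26 kb from Dlx6, 9.07 kb from Nkx1-1 and 370 kb from Nkx1-2. Of the 1949 protein-coding genes in the same class, 96 had a peak within 2.5 kb, which is 4.93%, and their median distance was 31.3 kb. This measure was chosen after the values had been seen. With a window of 2.5 kb, 4 rather than 10 genes carried H3K4me3 alone in iPSC after both at D0, and the number of bivalent genes in iPSC was 2 above D0 instead of 5 below it.

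**Figure D3:**
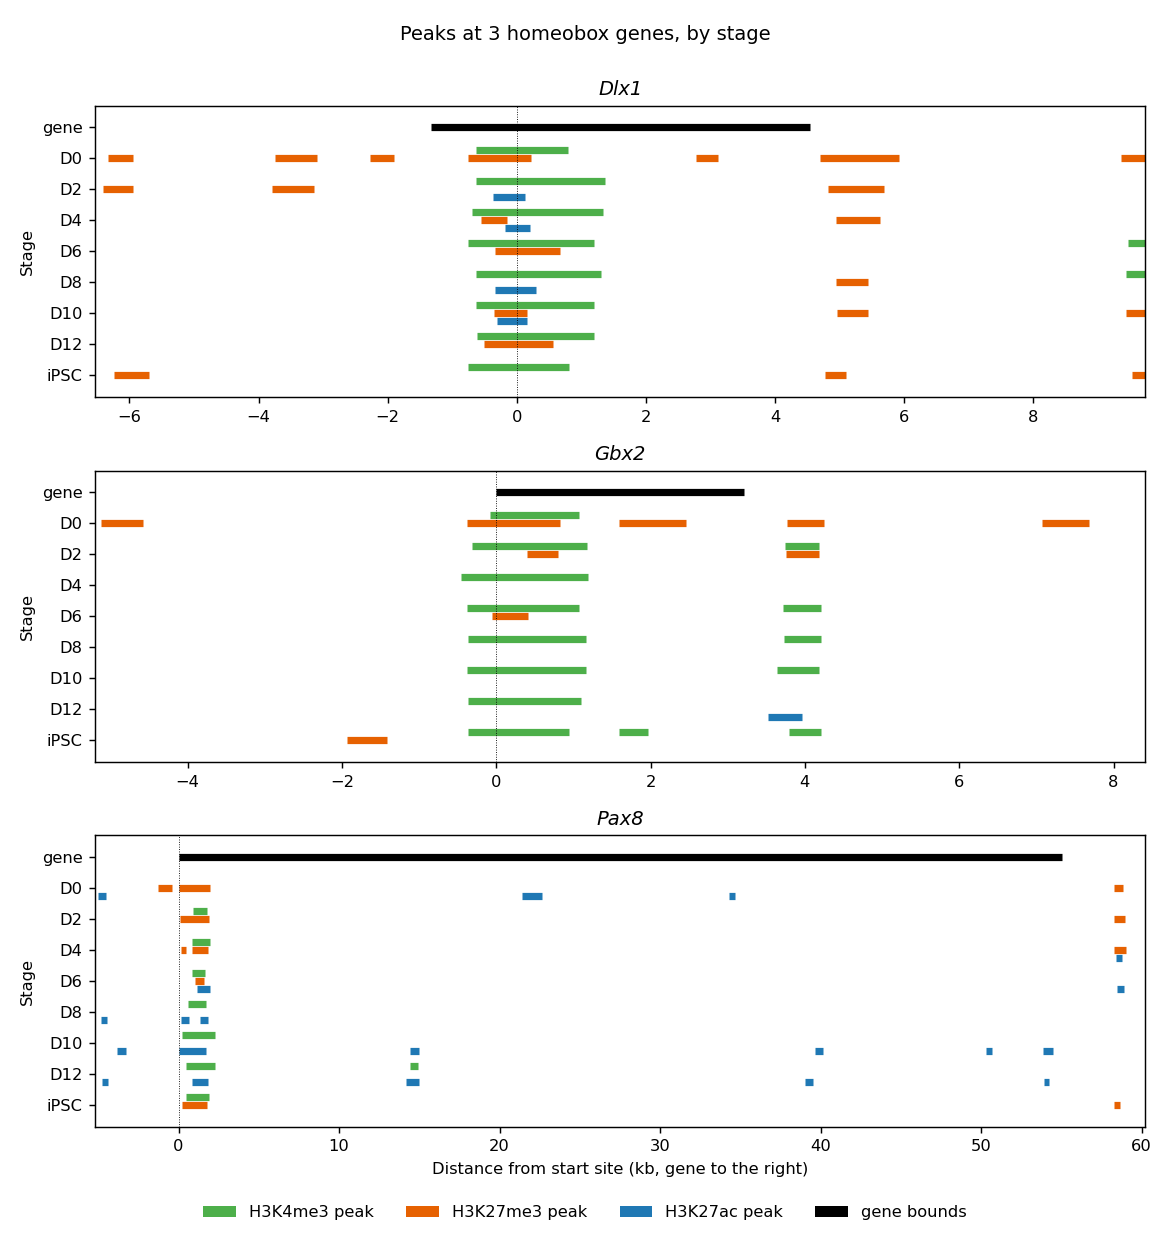
Peaks of H3K4me3, H3K27me3 and H3K27ac over Dlx1, Gbx2 and Pax8 at each stage (rows), with distance from the start site in kb on the x axis and each gene running to the right. At Dlx1 the H3K4me3 peak over the start site is present in all 8 rows while the H3K27me3 peaks differ from row to row, at or near the start, within the gene or at its end, and at D0, D2 and in iPSC also several kb upstream. At Gbx2 the iPSC peak of H3K27me3 sits upstream, 1.42 kb from the gene. At Pax8 the first 2 kb of the gene carry H3K27me3 at D0, D2, D4, D6 and in iPSC, and H3K27ac at D6, D8, D10 and D12, with both at D6.

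The genes that started with 1 mark moved in both directions. Of 4 genes with H3K4me3 alone at D0, 2 carried both marks in iPSC, among them Dlx2, while Six4 and Six5 carried H3K4me3 alone at both ends. Over all genes with H3K4me3 alone at D0, 14.8% carried both in iPSC. Six4, which acts in muscle, kidney and ear, was also the gene with the most H3K27ac at D0. H3K27me3 over Dlx2 covered 0 (D0), 0 (D2), 0.433 (D4), 0 (D6), 1.01 (D8), 0.796 (D10), 0.564 (D12) and 0.390 kb in iPSC. In Dlx2 the mark first appeared at D4 and was not called at D6.

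Of 9 genes with H3K27me3 alone at D0, Nkx2-3, Pax7 and Pax8 carried both marks in iPSC, Nkx2-5 and Six3 carried H3K4me3 alone, Irx4 and Lhx3 stayed with H3K27me3 alone, and Nkx2-1 and Pax4 had neither. Over all genes with H3K27me3 alone at D0, 35% carried both in iPSC, 17.5% H3K4me3 alone, 22.1% H3K27me3 alone and 25.5% neither. H3K4me3 was gained over 5 homeobox genes in iPSC relative to D0 (Nkx2-3, Nkx2-5, Pax7, Pax8 and Six3) and lost over 0, against 6.65% and 1.79% of all genes. This direction reversed with other peaks: the iPSC count less the D0 count was -4 with peaks of −log10 q of at least 10 and -22 with lists of equal length. Of these 5, Nkx2-3 (spleen and gut), Pax7 (muscle stem cells), Pax8 (thyroid) and Six3 (forebrain) had it by D2, and Nkx2-5 (heart) by D4. Pax7 and Nkx2-5 lacked it again at D6 and at D12. Over Nkx2-1, the regulator of thyroid, lung and ventral forebrain, H3K4me3 was transient and covered 0 (D0), 0.518 (D2), 1.29 (D4), 1.83 (D6), 2.08 (D8), 1.79 (D10), 1.86 (D12) and 0 kb in iPSC. Pax4, an islet gene, was called for H3K27me3 through only 0.018 kb at D0 and 0.041 kb at D2 of a peak at the edge of its window.

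The loss of called H3K27me3 at D6 touched most families. Between D4 and D6 the mark was lost over 24 of 42 homeobox genes, 57.1%, against 45.4% of the genes that had it over the whole genome, and gained over Gbx2 and Nkx2-5. Among the Lhx genes it fell to 1 of 8 at D6, against 8 of 8 at D4, leaving Lhx6. Among the Irx genes it fell to 0 of 6, against 3 of 6 at D4. Among the Pax genes it lay over 6 of 9 at D6, against 8 of 9 at D4. Between D6 and D8 it was gained over 22 genes, a gain not counted over all genes. In addition, 28 genes had it at D10 and not at D6, against 13.7% of all genes. Between D10 and D12 it was lost over 22 of 46, 47.8%, against 44.1% of marked genes over the whole genome. Between D12 and iPSC it was gained over 21 of the 56, against 14.5% of all genes. It was lost over 6 (Dlx6, Irx5, Msx1, Nkx1-2, Nkx2-1 and Pax5), 24% of those with it at D12, against 26.2% of marked genes over the whole genome. The losses from D10 to D12 and from D12 to iPSC were thus near those of all marked genes, and the loss from D4 to D6 was larger.

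In all, 22 homeobox genes carried H3K27me3 at D0 and in iPSC but not at D6, against 7.99% of all genes. They included 5 Lhx genes with roles in neurons and pituitary (Lhx2, Lhx3, Lhx4, Lhx5 and Lhx8) and Lhx9 (gonad), 5 Irx genes, Emx1 and Emx2 (cerebral cortex), Six2 (nephron progenitors) and Six6 (eye), Pax3 and Pax9, Nkx2-2, Nkx2-3 and Nkx3-2, and Dlx3 and Dlx4. Emx1 had 4.10 (D0), 2.00 (D2), 1.41 (D4), 0 (D6), 0.577 (D8), 0 (D10), 0 (D12) and 1.45 kb in iPSC. Between D8 and D10 it was the 1 homeobox gene that lost the mark, while 8 gained it. Lhx3, whose window never held H3K4me3, had 2.41 (D0), 1.33 (D2), 0.407 (D4), 0 (D6), 0 (D8), 0.339 (D10), 0 (D12) and 0.809 kb in iPSC.

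In each family the gene with the most H3K27me3 at D0 was Pax5 (11.8 kb), Lhx6 (6.34 kb), Nkx2-2 (5.45 kb), Gbx1 (4.60 kb), Emx1 (4.10 kb), Msx3 (3.56 kb), Dlx4 (3.50 kb), Irx4 (3.37 kb) and Six2 (3.29 kb). Lhx6 had 6.34 (D0), 1.37 (D2), 1.16 (D4), 0.415 (D6), 1.99 (D8), 0.817 (D10), 0.531 (D12) and 1.51 kb in iPSC. Nkx2-2, which specifies ventral spinal neurons and islet cells, had 5.45 (D0), 2.26 (D2), 2.33 (D4), 0 (D6), 0.908 (D8), 1.90 (D10), 0 (D12) and 1.84 kb in iPSC. Irx4, a gene of the heart ventricle, had 3.37 (D0), 0.431 (D2), 0 (D4), 0 (D6), 0.402 (D8), 0.606 (D10), 0 (D12) and 0.482 kb in iPSC. All 3 were highest at D0 and none returned to the D0 length. Msx3 held 3.56 (D0), 1.34 (D2), 1.08 (D4), 0.413 (D6), 1.08 (D8), 1.78 (D10), 0.886 (D12) and 0.330 kb in iPSC of a window that is 4.93 kb long.

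Summed over the 56 windows, H3K27me3 peaks covered 167 kb (D0), 67.0 kb (D2), 51.2 kb (D4), 10.6 kb (D6), 34.6 kb (D8), 52.9 kb (D10), 15.1 kb (D12) and 35.9 kb in iPSC. That was 3.11% of the windows' length in iPSC and 14.5% at D0, while over all gene windows it was 0.633% in iPSC and 1.02% at D0. The whole lists covered 16.7 Mb (D0), 8.97 Mb (D2), 9.24 Mb (D4), 4.11 Mb (D6), 7.84 Mb (D8), 9.21 Mb (D10), 4.81 Mb (D12) and 9.48 Mb in iPSC. The homeobox windows held 0.997% of the covered length at D0, 0.259% at D6 and 0.379% in iPSC. H3K4me3 peaks covered more at each stage between than at D0 or in iPSC, with 71.8 kb (D0), 104 kb (D2), 101 kb (D4), 104 kb (D6), 110 kb (D8), 99.5 kb (D10), 84.5 kb (D12) and 67.2 kb in iPSC. Its share of all gene windows stayed between 2.30% and 2.52%. Pax6, the regulator of eye and brain, had the most H3K4me3 of any of the genes at D6, and its window held 2.79 (D0), 3.42 (D2), 3.67 (D4), 7.01 (D6), 5.74 (D8), 4.85 (D10), 4.50 (D12) and 1.12 kb in iPSC.

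**Figure D4:**
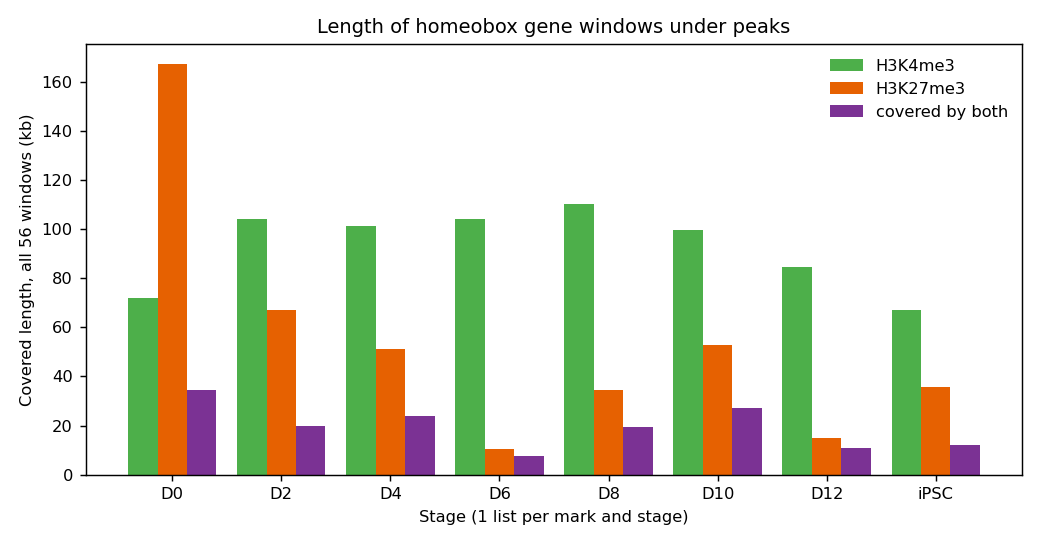
Length of the 56 homeobox windows (y axis, kb) under H3K4me3 peaks, under H3K27me3 peaks and under both, at each stage, from 1 list per mark and stage. H3K27me3 covers 167 kb at D0 and no more than 67.0 kb afterwards, while H3K4me3 covers 67.2 to 110 kb throughout.

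Within its own list, H3K27me3 at these genes ranked above that of all marked genes at D0 but not in iPSC, and H3K4me3 ranked below at both ends. The strongest H3K27me3 peak of a homeobox gene stood at a median percentile of 65.6 by the authors' p-value in iPSC and 83.8 at D0, against 68.0 in iPSC and 76.1 at D0 for all genes with the mark. The strongest H3K4me3 peak stood at 45.7 in iPSC and 30.0 at D0, against 76.4 and 67.2 for all genes. At D0 43 of 52 homeobox genes had an H3K27me3 peak at or above the 75th percentile of the list, among them Dlx3 and Pax8, whose peaks had 3.36-fold and 3.58-fold enrichment. In iPSC 12 of 40 did, among them Pax1 (4.65-fold) and Pax9 (4.32-fold). H3K4me3 at these genes was at or above the 75th percentile in 2 of 52 genes in iPSC, among them Lhx6 (7.09-fold), and in 0 of 47 at D0.

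By called peaks, the marks lay on the same bases in fewer bivalent homeobox genes in iPSC than at D0, a count not made over all genes. Among bivalent homeobox genes, an H3K4me3 peak and an H3K27me3 peak overlapped in 22 of 38 in iPSC and in 39 of 43 at D0, and the share was 73.3% to 88.9% at the stages between. Of the H3K4me3 length in the windows, 48.1% was also under H3K27me3 at D0, 7.50% at D6 and 18.2% in iPSC. Over the whole lists it was 14.2% at D0, 5.39% at D6 and 12.8% in iPSC. Of the H3K27me3 length in the windows, 20.7% was also under H3K4me3 at D0 and 33.9% in iPSC, against 21.9% and 41.3% over the whole lists. By that measure the overlap was higher in iPSC than at D0. The median H3K4me3 peak was 1323 bp wide at D0 and 763 bp in iPSC, and the median H3K27me3 peak 611 and 485 bp. The part of peak width in these values was not tested. In the 16 genes whose peaks lay apart in iPSC the median gap was 2.46 kb and the largest 9.97 kb. They were Dlx1, Dlx4, Emx1, Emx2, Gbx1, Irx2, Irx3, Lhx2, Lhx5, Msx3, Nkx2-3, Nkx3-2, Nkx6-1, Pax7, Pax9 and Six2. At D0 the 4 genes with peaks apart were Emx2, Irx3, Lhx1 and Six2.

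At the start sites the marks rarely lay together at any stage. The counts of covered start sites below were not made over all genes. The D0 list of H3K27me3 covered 16.7 Mb, against 4.11 to 9.48 Mb later, and its part in these counts was not tested. H3K27me3 covered the start site of 10 of the 41 genes with one at D0 (Dlx1, Gbx2, Irx2, Lhx6, Msx2, Msx3, Nkx1-1, Nkx2-3, Pax2 and Six6), 2 (D2), 2 (D4), 2 (D6), 0 (D8), 4 (D10), 2 (D12) and 1 in iPSC (Pax2). H3K4me3 covered 16 (D0), 24 (D2), 24 (D4), 22 (D6), 24 (D8), 25 (D10), 22 (D12) and 15 in iPSC. Both marks covered the start of 5 genes (D0), 1 (D2), 1 (D4), 2 (D6), 0 (D8), 3 (D10), 2 (D12) and 0 in iPSC, and the 5 at D0 were Dlx1, Gbx2, Lhx6, Msx2 and Msx3. The upstream sequences of Dlx1, Gbx2 and Msx2 printed above belong to this group. At 0.5 kb into the gene, H3K27me3 covered 7.32% of the 41 genes in iPSC and 46.3% at D0, against 8.52% and 11.9% of all genes with a start site. A position 5 kb downstream of the start lies past the end of short genes such as Gbx2 (3215 bp) and Msx3 (2932 bp). There H3K27me3 covered 12.2% in iPSC and 17.1% at D0, against 0.492% and 0.909% of all genes. The homeobox excess over all genes was thus present at 0.5 kb and at 5 kb at D0, and at 5 kb but not at 0.5 kb in iPSC. H3K4me3 at 0.5 kb covered 65.9% in iPSC and 46.3% at D0, against 49.2% and 54.1% of all genes.

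**Figure D5:**
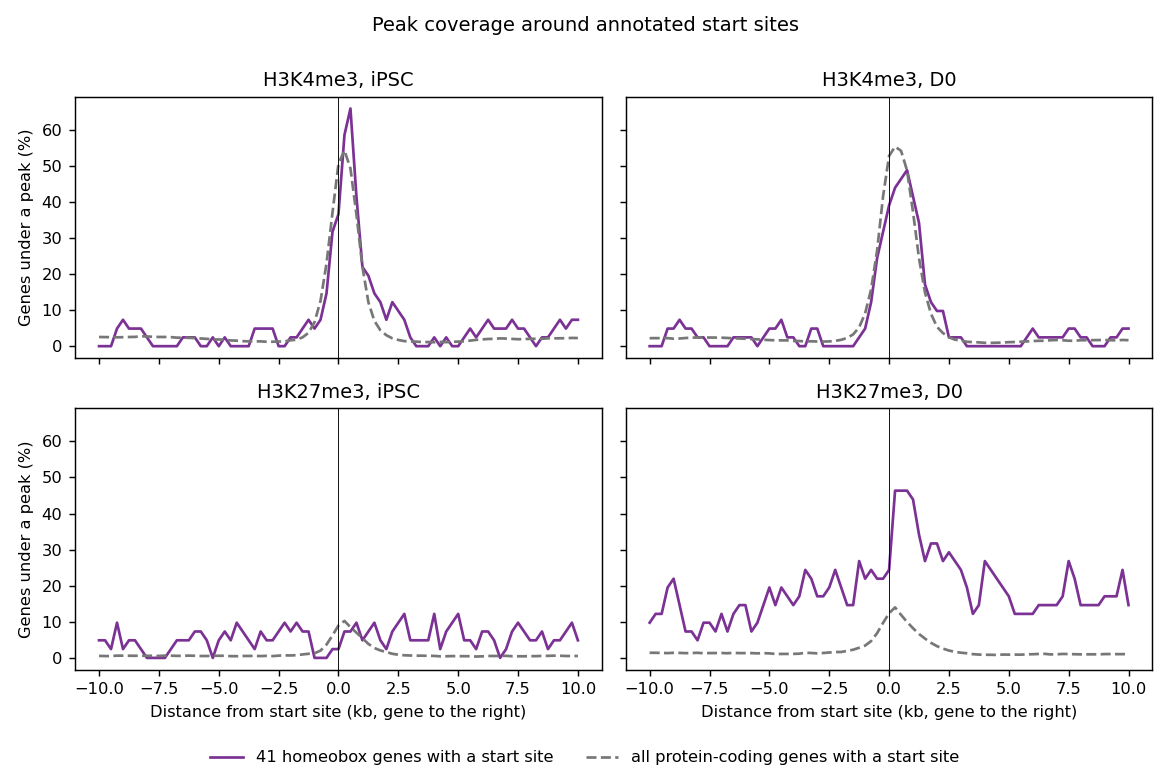
Share of genes under an H3K4me3 peak (top) or an H3K27me3 peak (bottom) by distance from the start site in kb, in iPSC (left) and at D0 (right), for the 41 homeobox genes with a start site and for 17492 protein-coding genes. H3K27me3 over the homeobox genes reaches 46.3% just inside the gene at D0 and shows no such rise in iPSC, where H3K4me3 reaches 65.9%.

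H3K27ac was called over fewer homeobox genes than genes in general at every stage: 27 (D0), 18 (D2), 16 (D4), 20 (D6), 10 (D8), 18 (D10), 26 (D12) and 6 in iPSC. Over all genes the shares were 63.5% (D0), 57.5% (D2), 52.3% (D4), 53.7% (D6), 50.3% (D8), 56.3% (D10), 61.8% (D12) and 41.3% in iPSC. The homeobox windows are shorter, and by covered length the difference was smaller at some stages: H3K27ac covered 1.81% of the homeobox windows (D0), 1.59% at D12 and 0.262% in iPSC, against 2.18%, 1.70% and 0.763% of all gene windows at these stages. The 6 genes with it in iPSC included Irx6, Lhx8, Pax1, Pax5 and Six4, and all 6 had it at D0 too. It was called at 4 or more stages over 21 genes, against 58.5% of all genes, and at no stage over 12 (Dlx3, Emx1, Gbx1, Irx4, Lhx1, Lhx3, Lhx5, Nkx1-1, Nkx2-5, Nkx6-2, Pax4 and Six2), against 26.1%. The H3K27ac peaks ranked low in their lists, at a median percentile of 38.1 in iPSC and 26.1 at D0 for the strongest peak of a gene, against 66.4 and 82.1 for all genes. With lists cut to equal length, H3K27ac lay over 6 genes in iPSC and 6 at D0, and the difference between these stages was not present.

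Six4 had the most H3K27ac at D0, with 2.11 (D0), 1.22 (D2), 0.359 (D4), 0.441 (D6), 0 (D8), 0 (D10), 0 (D12) and 0.864 kb in iPSC. Msx1, a gene of tooth and craniofacial mesenchyme, had 1.41 (D0), 1.01 (D2), 0.754 (D4), 0.471 (D6), 0 (D8), 0.562 (D10), 0 (D12) and 0 kb in iPSC. Both were highest at D0 and neither had the mark at D8 or D12, and Six4 had it again in iPSC. Nkx2-6 had the mark at 7 stages, the most of the 56, with 0.479 (D0), 0.430 (D2), 0.360 (D4), 0.464 (D6), 0.486 (D8), 0.624 (D10), 0.624 (D12) and 0 kb in iPSC. Further genes with it at 4 or more stages, each covering at most 1.42 kb at any stage, were Irx1, Irx3, Irx5 and Irx6, Lhx4 and Lhx9, Dlx1 and Dlx2, Msx2, Nkx2-2 and Nkx6-1, Pax1, Pax2, Pax5 and Pax7, and Six5.

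Pax8, known for the thyroid and kidney, held the most H3K27ac of any of the 56 at 3 successive stages, with 1.55 (D0), 0 (D2), 0 (D4), 0.805 (D6), 1.09 (D8), 3.74 (D10), 2.60 (D12) and 0 kb in iPSC. H3K27me3 over Pax8 covered 2.54 (D0), 1.80 (D2), 1.35 (D4), 0.504 (D6), 0 (D8), 0 (D10), 0 (D12) and 1.55 kb in iPSC. The 2 stages with the most H3K27ac, D10 and D12, were thus among the 3 without H3K27me3. H3K4me3 over Pax8 covered 0 (D0), 0.877 (D2), 1.12 (D4), 0.811 (D6), 1.12 (D8), 2.05 (D10), 2.30 (D12) and 1.42 kb in iPSC. The D10 peak of H3K27ac ran between 0.050 and 1.72 kb from the start site, and the iPSC peak of H3K27me3 between 0.200 and 1.75 kb, on overlapping bases.

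At D12 H3K27ac lay over genes that had lacked it at D0. Of the 56 homeobox genes, 12 had it at D12 and not at D0, which is 21.4%, against 6.02% of all genes. It was called at D12 alone over 6 (Dlx6, Gbx2, Nkx3-2, Pax6, Six3 and Six6), 10.7% of the 56, against 1.59% of all genes. Pax6 had 1.20 kb at D12, and Dlx6, Gbx2, Nkx3-2, Six3 and Six6 had 0.250 to 0.455 kb. In iPSC 25 of the 26 with it at D12 had lost it, leaving Irx6, against 38.0% lost among all genes with H3K27ac at D12. Among bivalent homeobox genes H3K27ac was called in 48.8% at D0, 52% at D12 and 10.5% in iPSC, against 80.8%, 79.2% and 39.9% of all bivalent genes at these stages. The D12 list of H3K27ac held 34185 peaks and the iPSC list 20479, and the part of this difference in the counts was not tested.

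H3K18la was called over 25 homeobox genes (D0), 8 (D2), 16 (D4), 21 (D6), 15 (D8), 10 (D10), 5 (D12) and 11 in iPSC, against 45.1%, 29.4%, 43.2%, 52.3%, 45.5%, 30.4%, 33.7% and 40.7% of all genes. By covered length the direction differed by stage: H3K18la covered 1.22% of the homeobox windows (D0), 0.814% (D4) and 1.14% (D6), above the 0.710%, 0.654% and 0.931% of all gene windows, and lay below them at D2, D8, D10, D12 and in iPSC. It was at no stage over 11 genes, against 32.5% of all, and at D0 alone over 8 (Dlx6, Lhx5, Msx3, Nkx2-1, Nkx2-5, Nkx2-6, Nkx2-9 and Six3), against 1.69%. Of the H3K18la length over homeobox genes, 70.1% was also under H3K27me3 in iPSC and 61.7% at D0, against 19.4% and 16.3% over the whole lists. At D12 that share was 0% for the homeobox genes. All 11 genes with H3K18la in iPSC carried H3K27me3 there, and 10 of them H3K4me3 as well. Dlx1 had H3K18la at 7 stages, with 0.526 (D0), 0.317 (D2), 0.749 (D4), 0.574 (D6), 0.613 (D8), 0.342 (D10), 0 (D12) and 0.496 kb in iPSC. Irx3 had 0.484 (D0), 0.575 (D2), 0.836 (D4), 0.899 (D6), 0 (D8), 0.410 (D10), 0.566 (D12) and 0 kb in iPSC. Pax8 had 1.13 kb in iPSC and 0.349 kb at D0 and none between. The D2 count comes from the list that may hold 1 library.

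H3K9me3 was called over 0 of the 56 genes at D0, D2, D4, D6, D8, D10 and D12 and over 3 in iPSC (Dlx5, Lhx9 and Msx3). Over all genes the share was 12.6% (D0), 11% (D2), 14.8% (D4), 7.35% (D6), 5.7% (D8), 8.08% (D10), 6.05% (D12) and 11.1% in iPSC. The Lhx9 peak (chr1:138841358-138841855) had 8.19-fold enrichment and overlapped both an H3K4me3 peak and an H3K27me3 peak. The Msx3 peak (chr7:140047874-140048343) had 4.91-fold enrichment and overlapped H3K4me3, and the Dlx5 peak (chr6:6878194-6878583) had 4.32-fold enrichment and overlapped H3K27me3. All 3 genes were bivalent in iPSC, and none had H3K27ac there.

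Counts by the tissue in which the genes are best known follow, beside shares of all genes bivalent of 21.2% at D0, 13.2% at D6 and 24.4% in iPSC. Of 26 genes of brain, eye and spinal cord, 21 were bivalent at D0, 11 at D6 and 19 in iPSC. Of 12 genes of mesenchyme and skeleton, 10 were bivalent at D0, 3 at D6 and 8 in iPSC. Of 7 genes of heart, gut and endocrine organs, 2 were bivalent at D0, 3 at D6 and 4 in iPSC, and H3K4me3 lay over 5 of the 7 in iPSC and 2 at D0. These groups are small, and the difference between them was not tested.

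Genes whose proteins work with homeodomain factors, or that write and read the marks, were counted the same way. Of 19 partner genes (among them the TALE genes Pbx2, Pbx3, Meis1 to Meis3, Pknox1 and Pknox2, the LIM cofactors Ldb1, Ldb2 and Lmo4, the phosphatase genes Eya1 to Eya4, Dach1, and the corepressors Tle1 and Tle4), 10 were bivalent in iPSC and 10 at D0, against 24.4% and 21.2% of all genes. H3K27ac lay over 10 of the 19 in iPSC and over all 19 at D0, against 41.3% and 63.5% of all genes. Those bivalent at both ends included Dach1, Eya2, Eya4, Meis1, Meis2, Meis3, Pbx3 and Pknox2. Of 25 genes of the Polycomb and trithorax machinery, H3K4me3 lay over 25 at every stage, against 64.9% to 69.7% of all genes. H3K27me3 lay over 7 in iPSC (among them Bmi1, Cbx8, Jarid2, Kdm2b, Kdm6b and Phf19) and 8 at D0. These are 28% and 32% of the 25, near the 28.2% and 28% of all genes. The core H3K27 methyltransferase genes Ezh1, Ezh2, Eed and Suz12 had no H3K27me3 at either stage.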

How the data were processed

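CUT&Tag libraries of 5 histone marks were made at 8 stages, and the labels name 2 libraries for each mark and stage. Per the submitters' processing notes, MACS2 2.1.2, Bowtie2 2.2.5, fastp 0.20.1 and deepTools 3.4.3 were run and mm10 was the build. The authors deposited 1 peak list for each mark and stage. Not given in the sources used here are the control and whether the 2 libraries were pooled. Each deposited peak carries a fold enrichment, a −log10 p-value and a −log10 q-value from the authors' peak caller, and these were used only to describe and rank peaks within a list. The lowest −log10 p-value in any list was 5.00. No count per sample was used, so depth was inferred: for 99.6% of the peaks tried, the fold and the p-value together gave a whole number of fragments within 0.01 of the deposited −log10 p-value.

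Of 713652 peaks, the 710560 on autosomes and sex chromosomes were kept. Gene bounds came from RefSeq on GRCm38.p6, the same build as mm10. A gene was called for a mark where its bounds with 1 kb on each side met at least 1 base of a peak. With 1 list per mark and stage no test was possible, and many counts, though not all, are set beside those of all protein-coding genes. The overlap code was tested on simulated peaks. The analysis used Python 3.11.15, pandas 2.3.3, numpy 2.4.6, scipy 1.17.1 and matplotlib 3.10.9. The genes and lists were chosen with earlier results of these data known. Full courses were named for genes bivalent at all 8 stages, genes whose iPSC and D0 states differ, the gene of each family with the most H3K27me3 at D0, genes with H3K27ac at 4 or more stages and genes with H3K9me3; where many met the rule, examples are given in full. Alternatives were other windows, stricter peaks, equal list lengths, overlapping peaks, start sites, loci counted once and lists left out. Some genes are not reported here by name, and counts include them.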

Additional observations from a re-analysis of the deposited data

How the results depend on the processing

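No paired analysis was possible because each mark and stage has 1 deposited list. Of 483 recomputed values, 387 stayed within 1.5 times the reported one, 92 moved further and 4 changed direction, and the cause was not tested unless the alternative itself fixes it. Gene bounds with no extension, peaks with 200 bp or more inside the window and neighbours counted once per locus left each recomputed count within 1.5 times.

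With peaks of −log10 q of at least 10, bivalent genes numbered 22 (D2), 19 (D4), 2 (D6), 9 (D8), 20 (D10), 3 (D12) and 13 in iPSC, and genes with H3K27me3 23, 19, 2, 9, 21, 3 and 17. Over all genes the bivalent share was 9.30% (D2), 10.5% (D4), 2.48% (D6), 5.44% (D8), 8.60% (D10), 3.09% (D12) and 11.1% in iPSC. The homeobox share was 3.57% at D6 and 5.36% at D12, near that of all genes. For H3K27me3 at D6 the share of all genes was 2.86%. H3K27ac then lay over 1 gene in iPSC and 10 at D0, and H3K18la over 4 and 4. No gene (0) was bivalent at all 8 stages, 10 stayed bivalent and 21 kept H3K4me3 alone. The iPSC count less the D0 count was -33 for H3K27me3, -9 for H3K27ac, 0 for H3K18la, -27 for bivalency and -4 for H3K4me3, which reversed. With lists of equal length, iPSC had 15 bivalent genes and 25 with H3K4me3; H3K27ac lay over 6 at D0, H3K18la over 6 in iPSC and 8 at D0, 6 genes were bivalent throughout and 13 stayed bivalent. The differences were -23 for H3K27me3, 0 for H3K27ac, -2 for H3K18la, -27 for bivalency and -22 for H3K4me3, again reversed, and H3K27me3 covered 21.2 kb in iPSC.

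With windows of 2.5 kb and of 5 kb, 4 genes ended with H3K4me3 alone, the H3K27me3 difference was -4, and that of bivalency reversed to 2 and 1. At 5 kb H3K18la lay over 17 genes in iPSC and H3K27me3 covered 62.2 kb there. Requiring overlapping peaks gave 22 bivalent genes in iPSC, 6 bivalent throughout, 19 that stayed bivalent and a difference of -17. Bivalent genes throughout numbered 17 without the D6 list and 28 without D6 and D12, alternatives chosen after seeing the data. Under the alternatives, genes bivalent throughout or at both ends were not counted over all genes. Within 1 kb of the 41 start sites, bivalent genes numbered 11 (D2), 12 (D4), 5 (D6), 8 (D8), 13 (D10), 6 (D12) and 6 in iPSC, genes with H3K27me3 14, 13, 5, 9, 14, 6 and 7, and 3 were bivalent at both ends. Depth limits all lists: a gene without a called peak may carry the mark below the calling threshold.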
